A study of Mus musculus with 8 samples.

Results

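The spots of 2 mouse heart sections with the most Nppa mRNA for their depth were described, together with the genes that accompanied Nppa in them and with their place in the tissue. The sections came from hearts taken 4 weeks (TAC-4w) and 6 weeks (TAC-6w) after transverse aortic constriction. Members were chosen by their measured Nppa level: among the spots of a section with at least 5000 UMIs (unique molecular identifiers, each counting 1 captured RNA molecule), the 10% with the highest share of Nppa UMIs in all UMIs were called Nppa-high, and the 50% with the lowest share were called Nppa-low. This gave 119 Nppa-high spots of 1194 ranked spots in TAC-4w and 189 of 1894 in TAC-6w. The 308 Nppa-high spots came from the 7160 spots over tissue of the whole series. Nppa itself chose the spots, so its level is given as a description, and the co-enriched genes and the positions are the results.

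All animals were male wild type C57BL/6J mice that were 8 weeks old at surgery. Transverse aortic constriction narrows the aortic arch with a ligature and loads the left ventricle with pressure, and sham animals had surgery without constriction. There was 1 section of 1 heart for each of sham, TAC-2w (2 weeks after constriction), TAC-4w and TAC-6w, taken from embedded whole hearts on 10x Visium arrays, whose spots lie 100 µm apart and can each hold several cells. The labels put sham and TAC-2w in batch 1, TAC-4w in batch 2 and TAC-6w in batch 3. Batch and time after surgery therefore cannot be told apart when TAC-4w or TAC-6w is set beside another section. Sham and TAC-2w shared a batch, but each was 1 heart. Every ratio below is within a section, and values of different sections are set side by side as description only. Spots of 1 section are not replicates, no p-value is given, and intervals cover counting error only. The direction in which the sections were cut was not given in the sources used here, so that positions are stated relative to the tissue edge.

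Nppa encodes atrial natriuretic peptide, a hormone that atrial cardiomyocytes store and release when stretched and that promotes salt and water excretion and relaxes vessels. Ventricular cardiomyocytes of the adult heart make little of it, and its return in the ventricle is a classic sign of the fetal gene program under pressure load, usually named together with Nppb, Myh7 and Acta1. Nppb, which encodes brain natriuretic peptide, lies next to Nppa on mouse chromosome 4, with Nppb at chr4:147985786-147987205 and Nppa at chr4:148000722-148002074 in RefSeq on GRCm38.p6 and 13516 bases between them.

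The 4 sections held between 25996378 and 48754396 UMIs and between 1228 and 2193 spots over tissue. The UMI minimum left out 34 spots of TAC-4w (2.77%) and 299 of TAC-6w (13.6%). In TAC-4w the Nppa-high spots were deeper than the Nppa-low spots, with a median of 32773 against 28074 UMIs and 4680 against 3895 genes. In TAC-6w they were shallower, with 23729 against 29829 UMIs and 3836 against 4230 genes. Mitochondrially encoded transcripts made up 38.1% of the UMIs of Nppa-high and 42.8% of Nppa-low spots in TAC-4w, and 41.5% against 44.6% in TAC-6w.

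The level of a gene is given as its UMIs summed over a set of spots per 1000000 UMIs of those spots (counts per 1000000, CPM). The Nppa level that chose the spots was 10379 CPM in the Nppa-high, 1690 CPM in the intermediate and 309 CPM in the Nppa-low spots of TAC-4w. In TAC-6w it was 3170, 603 and 150 CPM. The lowest Nppa-high spot of TAC-4w had 4393 CPM (49 Nppa UMIs) and the next spot outside had 4370 CPM, and the highest Nppa-low spot had 664 CPM with the next spot above it at 666 CPM. The corresponding values in TAC-6w were 1261 CPM (7 Nppa UMIs) and 1260 CPM, and 314 and 315 CPM. The cuts thus fell within a continuous range in both sections, and Nppa-low spots were not free of Nppa: only 9 of 597 in TAC-4w and 71 of 947 in TAC-6w had no Nppa UMI.

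**Figure D1:**
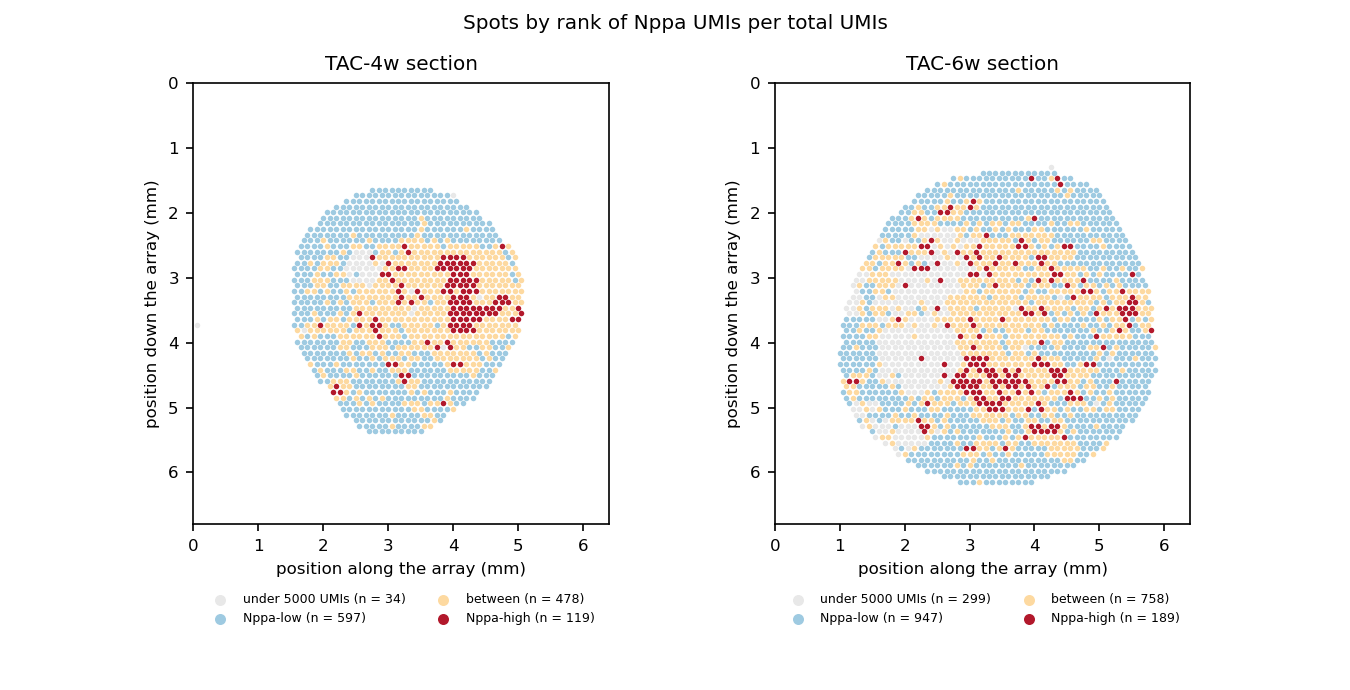
Position of every spot over tissue of TAC-4w and TAC-6w, in mm along and down the array, coloured by the rank of Nppa UMIs per total UMIs. Nppa-high spots (red) lie mostly away from the outer edge, as 1 dominant patch of 75 spots in TAC-4w and as a patch of 55 spots with many scattered spots in TAC-6w, while Nppa-low spots (blue) line most of the edge.

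Nppa-high spots were rare at the outer margin of both sections. Distance was counted in steps between neighbouring spots, with 0 for a spot on the outer edge. Of the Nppa-high spots of TAC-4w, 11 of 119 (9.24%, 95% Clopper-Pearson interval 4.71 to 15.9) lay at most 2 steps from the edge, against 270 of 597 Nppa-low spots (45.2%, 41.2 to 49.3). In TAC-6w the shares were 11 of 189 (5.82%, 2.94 to 10.2) and 357 of 947 (37.7%, 34.6 to 40.9). The median Nppa-high spot was 9 steps from the edge in TAC-4w and 12 steps in TAC-6w, and the median Nppa-low spot 3 and 4 steps. The lower quartile of the Nppa-high spots was 7 steps in both sections, and the upper quartile of the Nppa-low spots 5 steps in TAC-4w and 7 steps in TAC-6w, so that the middle ranges of the 2 kinds of spot were apart in TAC-4w and just touched in TAC-6w.

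The share of spots that were Nppa-high varied with distance from the edge. In TAC-4w it was 3.1% at 0 to 2 steps, 3.34% at 3 to 5 steps, 15.9% at 6 to 8 steps and 26.7% at 9 to 11 steps, then 10% at 12 to 14 steps and 19.4% of the 36 innermost spots. In TAC-6w it was 2.47% at 0 to 2 steps, between 5.71% and 9.28% from 3 to 11 steps, 28% at 12 to 14 steps and 17.9% further in. The band with the highest share was at 20.1 to 34.2% in TAC-4w and 21.6 to 35.1% in TAC-6w by its 95% interval, which overlapped that of the innermost band in both sections (8.19 to 36% and 13.9 to 22.6%), so that the order of these bands was not resolved. The depth differed along the same axis, with a median of 28336 UMIs at 0 to 2 steps and 7512 UMIs in the innermost band of TAC-4w, and 33426 and 14500 UMIs in TAC-6w.

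**Figure D2:**
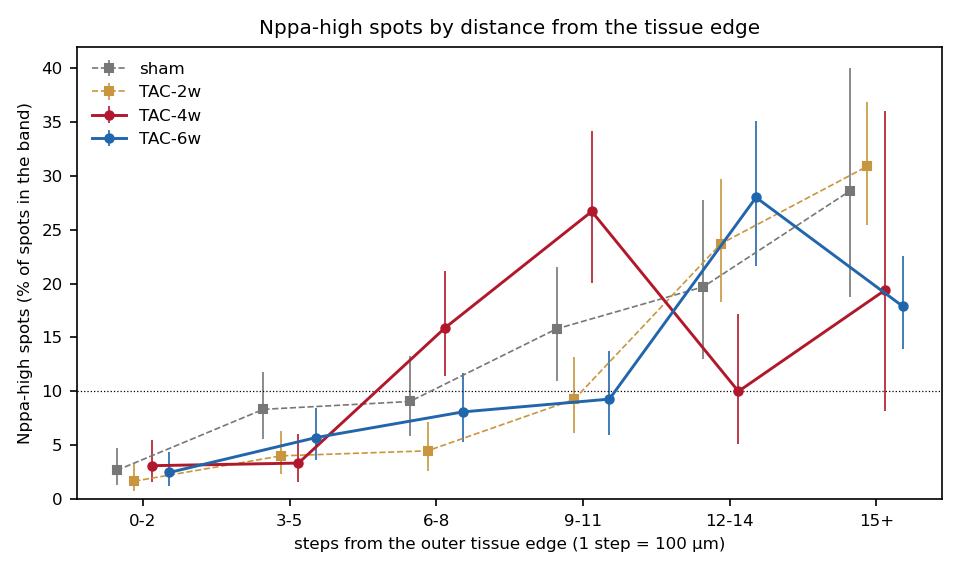
Percent of ranked spots that were Nppa-high (vertical axis) by steps from the outer tissue edge (horizontal axis), with exact 95% Clopper-Pearson intervals that cover counting error only. The share rises from 3.1% (TAC-4w) and 2.47% (TAC-6w) near the edge to 26.7% at 9 to 11 steps and 28% at 12 to 14 steps.

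Nppa-high spots lay next to a spot under the UMI minimum more often than Nppa-low spots did in both sections. The intervals cover counting error only, and whether the sections differed in this was not tested. In TAC-6w, 31 of 189 Nppa-high spots (16.4%, 11.4 to 22.5) had at least 1 neighbour under the minimum, against 78 of 947 Nppa-low spots (8.24%, 6.56 to 10.2). In TAC-4w the shares were 9 of 119 (7.56%, 3.52 to 13.9) and 14 of 597 (2.35%, 1.29 to 3.9), with intervals that overlapped. The intermediate spots were at 19% (16.3 to 22) in TAC-6w and 7.95% (5.69 to 10.7) in TAC-4w, and their intervals overlapped those of the Nppa-high spots. Connected regions of at least 10 spots under the minimum were also looked at. Within 3 steps of them lay 26.5% of Nppa-high and 13.5% of Nppa-low spots in TAC-6w. In TAC-4w the shares were 5.04% and 5.7%, with no excess for the Nppa-high spots.

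Nppa-high spots lay together. In TAC-4w 56.3% of the spots next to a Nppa-high spot were themselves Nppa-high, and in TAC-6w 35%, where 10% of all ranked spots were. Of the spots next to a Nppa-low spot, 0.416% and 2.28% were Nppa-high. The Nppa-high spots of TAC-4w formed 23 connected groups, of which the largest held 75 spots (63%) and 10 were single spots. Those of TAC-6w formed 70 groups, with 55 spots (29.1%) in the largest and 42 single spots. When each section was cut into 8 sectors around its centre, the upper and lower sectors to the right held 37% and 29.4% of the Nppa-high spots of TAC-4w, whereas in TAC-6w the fullest sector, at the bottom left, held 23.8%. Neighbouring pairs share spots and are not independent, and no interval is given for them.

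Across the transcriptome, Nppa-high spots differed from Nppa-low spots mainly by genes that were higher. Genes with at least 300 UMIs over the ranked spots of a section were compared, and a gene was counted as different when its CPM ratio was at least 1.5 in either direction. In TAC-4w, 515 of 6257 genes (8.23%) were higher and 57 (0.911%) were lower in Nppa-high spots. In TAC-6w, 342 of 7947 genes (4.3%) were higher and 50 (0.629%) were lower. The median log2 ratio of all genes compared was 0.16 in TAC-4w and 0.12 in TAC-6w, beside the smaller mitochondrial share of the Nppa-high spots given above, and lists are read against these medians. With ratios rescaled to a median of 0 on the log2 scale, 276 genes were higher and 144 lower in TAC-4w (65.7% of the different genes higher, against 90% before), and 177 and 100 in TAC-6w (63.9% against 87.2%). With a total that lacked mitochondrial transcripts and features resembling ribosomal RNA, the share of higher genes was 75.4% and 70.6%.

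The co-enriched genes overlapped between the sections. Of 6207 genes compared in both, 504 (8.12%) were higher in TAC-4w and 192 (3.09%) in TAC-6w. In both, 139 were higher, which is 27.6% of the first and 72.4% of the second set. The 139 genes were led by genes of smooth muscle (Tagln, Myh11, Myl9 and Acta2) and of the extracellular matrix (Cilp, Postn and Col8a1). Lower in both were 6 genes: H2-Aa, Efnb3, Cxcl14, Ccl5, Lrtm1 and S100a9. These are 12.2% of the 49 genes lower in TAC-4w and 24% of the 25 lower in TAC-6w. Of all 6207 genes, 0.789% and 0.403% were lower. Compared with the adjacent spots, or ranked within bands of distance from the edge, 0 genes were lower in both, whereas 139 became 39 with the first and stayed within 1.5 times with the second. No gene was higher in one section and lower in the other by this fold. Across the 6207 genes the log2 ratios of the 2 sections had a Pearson r of 0.52 and a Spearman rho of 0.41, which describe genes of 2 sections and not replicates.

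Among the natriuretic genes compared, the other hormone gene passed the 1.5-fold measure and no other gene did. Nppb was at 578 CPM in Nppa-high, 370 CPM in intermediate and 320 CPM in Nppa-low spots of TAC-4w, and at 302, 192 and 140 CPM in TAC-6w. Per spot, the median Nppb level of the Nppa-high spots of TAC-4w was 541 CPM (range 0 to 1582) and that of the Nppa-low spots 293 CPM (range 0 to 2001). The 2 sets overlapped, but 107 of 119 Nppa-high spots (89.9%) were above the median Nppa-low spot. In TAC-6w the medians were 256 CPM (range 0 to 1216) and 119 CPM (range 0 to 827), with 160 of 189 (84.7%) above. The Nppb ratio was 1.80 (95% exact binomial interval 1.71 to 1.90) in TAC-4w and 2.15 (2.02 to 2.29) in TAC-6w. Corin, the protease that cleaves the atrial peptide precursor, had ratios of 1.02 (0.909 to 1.15) and 1.04 (0.889 to 1.22). Furin, which cleaves the brain peptide precursor, was at 1.38 (1.16 to 1.63) and 1.2 (1.02 to 1.41). The receptor gene Npr2 was at 1.04 (0.791 to 1.36) and 1.07 (0.847 to 1.34), and Npr1 at 0.941 (0.678 to 1.28) in TAC-6w with too few UMIs in TAC-4w. Nppb was thus the only one of 4 natriuretic genes compared in TAC-4w and of 5 in TAC-6w that passed the fold. Of all genes, 8.23% and 4.3% were higher by this fold.

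The ventricular stress genes, a list of 25 genes that loaded ventricular muscle is known to raise, were split. In TAC-4w 7 of 21 compared were at least 1.5-fold higher and none lower, with a median log2 ratio of 0.20 beside 0.16 over all genes, and in TAC-6w 6 of 22 with a median of 0.45 beside 0.12. The background shares of higher genes were 8.23% and 4.3%. Ccn2, a secreted matricellular protein induced by stretch, was at 277 against 127 CPM in TAC-4w (ratio 2.19, 2.02 to 2.36) and at 145 against 54.7 CPM in TAC-6w (2.66, 2.41 to 2.92). Ankrd1, a titin-bound protein that responds to stretch, was at 2047 against 967 CPM (2.12, 2.06 to 2.18) and at 1503 against 984 CPM (1.53, 1.49 to 1.57). Synpo2l, an actin-binding protein of the Z-disc, was higher in both sections, at 1.83 (1.58 to 2.11) and 1.76 (1.57 to 1.98). Xirp2, also actin-binding, was at 1.71 (1.59 to 1.85) in TAC-4w and at 1.35 (1.26 to 1.44), short of the fold, in TAC-6w.

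The fetal isoform genes passed the fold less widely than Nppb, Myh7 in TAC-6w alone of these 2 sections and Acta1 in neither. Myh7, the slow and fetal myosin heavy chain, was at 8037 CPM in the Nppa-high and 7002 CPM in the Nppa-low spots of TAC-4w, a ratio of 1.15 (1.13 to 1.16), and no ranked spot of either kind was below 3305 CPM. In TAC-6w it was at 218 against 73 CPM, a ratio of 2.98 (2.76 to 3.23), and per spot its median was 155 CPM (range 0 to 1518) in the Nppa-high and 51.7 CPM (range 0 to 848) in the Nppa-low spots. Myh7 was therefore high throughout the TAC-4w section and higher with Nppa in the TAC-6w section, and the difference between the sections cannot be told apart from batch. Acta1, skeletal α-actin, was at 1.10 (1.06 to 1.13) in TAC-4w and at 1.39 (1.37 to 1.42) in TAC-6w. With the ratios rescaled to a median of 0, Acta1 in TAC-4w turned to the other side, and the median of the stress list in TAC-4w was 0.04.

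Fibrosis genes included the highest ratios of both sections. Of the list of 24 fibrosis genes, 15 of 16 compared were at least 1.5-fold higher in TAC-4w (median log2 ratio 1.39) and 18 of 19 in TAC-6w (median 0.91), and none was lower. The exceptions were Lox, a collagen cross-linking enzyme, at 1.01 (0.687 to 1.46) in TAC-4w, and Loxl1, an enzyme of elastin cross-linking, at 1.46 (1.3 to 1.64) in TAC-6w. The shares over all genes compared were 8.23% and 4.3% higher and 0.911% and 0.629% lower. All 24 fibrosis genes together were at 1407 CPM in Nppa-high and 470 CPM in Nppa-low spots of TAC-4w, and at 2967 and 1573 CPM in TAC-6w.

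Postn, which encodes periostin, a matrix protein of activated fibroblasts, had the highest ratio in TAC-4w. It was at 168 CPM in Nppa-high, 28.5 CPM in intermediate and 12.2 CPM in Nppa-low spots, a ratio of 13.7 (11.7 to 16.2). The median Nppa-high spot had 71.1 CPM (range 0 to 2377) and the median Nppa-low spot 0 CPM (range 0 to 1077), and 77.3% against 21.8% of spots had at least 1 Postn UMI. With every spot thinned to 5000 UMIs these shares were 37.8% and 6.53%, in the same order. In TAC-6w Postn was at 245, 128 and 74.8 CPM, a ratio of 3.27 (3.03 to 3.53). There 78.3% of Nppa-high and 70.5% of Nppa-low spots held a Postn UMI, and 58.7% and 27.2% after thinning. The lower ratio of TAC-6w went with a higher level in its Nppa-low spots, and the level in its Nppa-high spots was above that of TAC-4w, though levels of the 2 sections cannot be told apart from batch.

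Cilp, a cartilage matrix protein also made by fibroblasts of loaded hearts, followed the same course, at 118 against 8.68 CPM in TAC-4w (13.6, 11.2 to 16.5) and 162 against 38.4 CPM in TAC-6w (4.21, 3.82 to 4.64). Thbs4, a thrombospondin of the matrix and of the stressed secretory pathway, had the highest ratio in TAC-6w, with 49.3 against 5.14 CPM (9.58, 7.71 to 11.9). In TAC-4w it was at 28.7 against 4.04 CPM, under the 300 UMIs required. The 10 Nppa-high spots with the most Thbs4 held 70.2% of its UMIs in Nppa-high spots of TAC-6w, so that its enrichment was concentrated. Ltbp2, a protein of elastic microfibrils, was at 27 against 5.75 CPM in TAC-6w (4.69, 3.66 to 6.01).

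The structural collagens showed smaller ratios than these matricellular genes. Col1a1 was at 66.6 against 24.8 CPM in TAC-4w (2.68, 2.27 to 3.16) and 187 against 113 CPM in TAC-6w (1.66, 1.54 to 1.80). Col3a1 was at 62.3 against 25.7 CPM (2.42, 2.05 to 2.86) and 392 against 245 CPM (1.60, 1.51 to 1.69). Col8a1, a short-chain collagen, was at 4.14 (3.34 to 5.12) and 2.57 (2.30 to 2.88). Fn1, fibronectin, was at 3.14 (2.61 to 3.76) and 1.75 (1.53 to 1.99), and Timp1, an inhibitor of matrix metalloproteinases, at 2.89 (2.27 to 3.66) and 2.37 (1.80 to 3.09). Microfibril genes were among the leading genes of TAC-4w, with Mfap4 at 4.76 (3.57 to 6.35) and Mfap5 at 4.18 (3.72 to 4.69). So were Pi16, which marks adventitial fibroblasts, at 5.33 (4.69 to 6.05), and Prg4, which encodes the lubricant lubricin, at 6.87 (5.95 to 7.93).

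Markers of fibroblasts in general had smaller ratios than the fibrosis genes. In TAC-4w 4 of 5 compared were higher by the fold (median log2 ratio 1.05), beside 8.23% of all genes. In TAC-6w 2 of 6 were (median 0.52), beside 4.3%. Lum, the proteoglycan lumican, was at 2.51 (2.16 to 2.91) and 1.62 (1.48 to 1.77). Gsn, gelsolin, was at 2.07 (2.01 to 2.13) and 1.60 (1.56 to 1.65). Dcn, decorin, stayed short of the fold, at 1.3 in TAC-4w and 1.42 (1.36 to 1.47) in TAC-6w, and Pdgfra, a receptor of resting fibroblasts, was at 1.89 (1.49 to 2.37) and 1.34 (1.08 to 1.65). A spot sums over its cells, so that more cells of a type and more RNA per cell cannot be told apart for any list.

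The Nppa-high spots and the spots richest in fibrosis genes were partly the same. When as many spots were taken by their summed fibrosis level, 60 of the 119 Nppa-high spots of TAC-4w (50.4%) and 60 of the 189 of TAC-6w (31.7%) were among them, where 10% of ranked spots were taken. Without the 5% of spots highest in fibrosis genes, the list's median log2 ratio was 0.78 in TAC-4w and 0.63 in TAC-6w, and 243 and 178 genes in place of 515 and 342 were higher. Against the spots directly adjacent to them, Nppa-high spots still had a median log2 ratio of 1.06 and 0.58 for fibrosis genes.

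**Figure D3:**
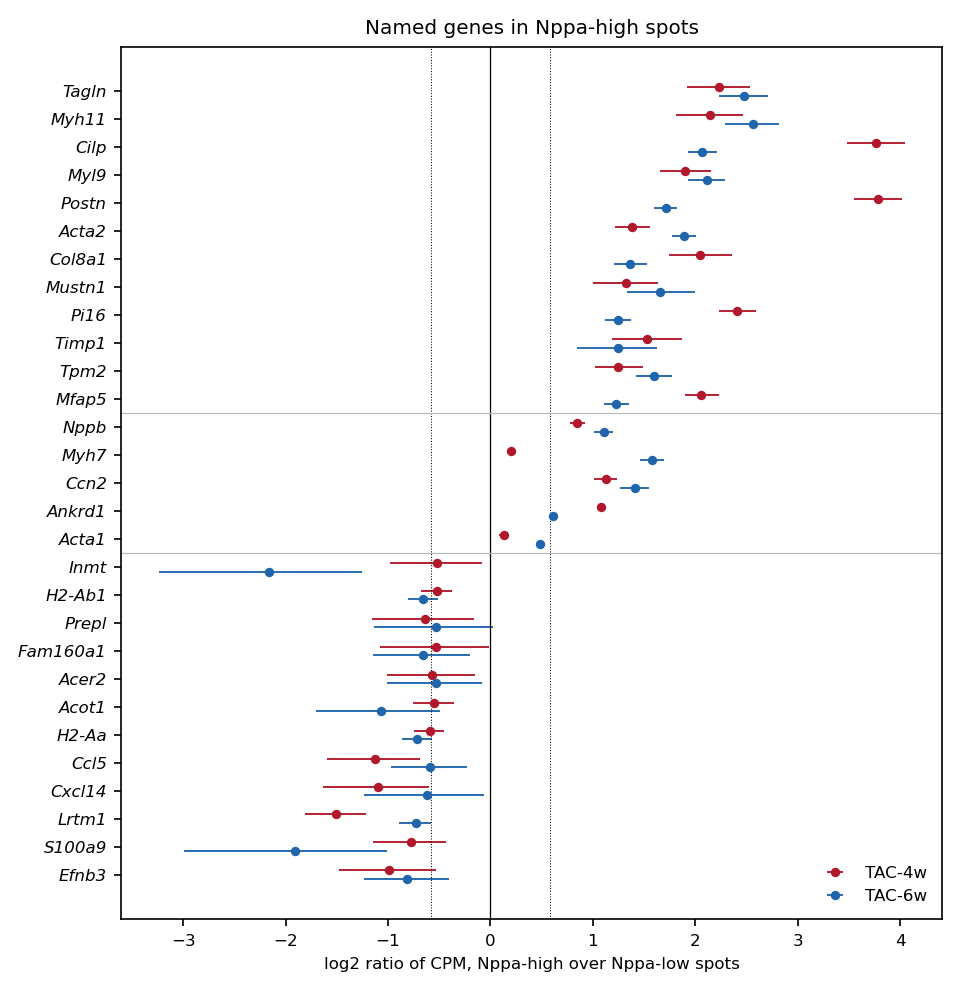
Log2 ratio of the CPM in Nppa-high spots to that in Nppa-low spots (horizontal axis) for leading genes in TAC-4w and TAC-6w, with exact binomial 95% intervals that cover counting error only. As plain ratios, Postn and Cilp are above 13 in TAC-4w and between 3 and 5 in TAC-6w. Tagln, Myh11 and Acta2 have higher ratios in TAC-6w than in TAC-4w, and of these only the Acta2 intervals are apart.

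Smooth muscle markers were high in Nppa-high spots of both sections, and a few spots held much of their UMIs. A UMI of the list was found in 89.9% and 88.4% of the Nppa-high spots, and the 10 richest held 48.2% and 57.1% of its UMIs there. All 5 compared were higher by the fold, beside 8.23% and 4.3% of all genes. The median log2 ratio was 1.90 in TAC-4w and 2.11 in TAC-6w. Myh11, the smooth muscle myosin heavy chain, was at 43.1 against 9.77 CPM in TAC-4w (4.41, 3.51 to 5.54) and 53.3 against 9.06 CPM in TAC-6w (5.88, 4.89 to 7.07). Only 36.1% and 29.6% of the Nppa-high spots had a Myh11 UMI, and the 10 richest held 63.3% and 72.4% of its UMIs in Nppa-high spots. Tagln, an actin-associated protein of contractile smooth muscle, was at 4.68 (3.79 to 5.79) and 5.56 (4.71 to 6.56), and Acta2, smooth muscle α-actin, at 2.61 (2.32 to 2.94) and 3.71 (3.41 to 4.03). Per spot, the median of Acta2 in TAC-4w was 61.2 CPM in the Nppa-high and 30.3 CPM in the Nppa-low spots. Tpm2, a tropomyosin, at 2.39 (2.03 to 2.80) and 3.03 (2.68 to 3.42), was also among the leading genes of TAC-6w. Without the 5% of spots highest in smooth muscle markers the list's median log2 ratio was 0.51 in TAC-4w and 0.52 in TAC-6w, and 371 and 219 genes in place of 515 and 342 were higher. In TAC-4w the median also moved with the spots compared, to 0.72 against the adjacent spots and to 2.98 when spots were ranked within bands of distance from the edge. Pericyte markers, which label the mural cells of capillaries, showed no such excess, with none of 6 past the fold and medians of 0.17 and 0.08.

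Ifit1, Ifit3 and Cmpk2, which are known to be induced by interferon, were among the 12 genes with the highest ratios in TAC-4w. Ifit1, which encodes a protein that binds foreign RNA, was at 75.2 CPM in Nppa-high, 23.8 CPM in intermediate and 11.3 CPM in Nppa-low spots, a ratio of 6.67 (5.51 to 8.09). Ifit3, a partner of Ifit1, was at 72.9 against 12.5 CPM (5.82, 4.82 to 7.02), and Cmpk2, a mitochondrial nucleotide kinase induced by interferon, at 37.3 against 7.36 CPM (5.07, 3.93 to 6.55). In TAC-6w the same genes were at 1.26 (0.951 to 1.65), 1.18 (0.91 to 1.52) and 1.43 (1.03 to 1.94), short of the fold. Ifi27l2a and Oasl2, also known to be induced by interferon, passed it in both sections. Ifi27l2a was at 3.06 in TAC-4w and 1.54 in TAC-6w, and Oasl2 at 2.45 and 1.53. The Ifit1 signal in TAC-4w was local: 42.9% of the Nppa-high spots had an Ifit1 UMI, against 21.9% of the Nppa-low spots. The 10 richest spots held 70.2% of the 262 Ifit1 UMIs of the Nppa-high spots. In the largest connected group Ifit1 was at 101 CPM (ratio 8.99, 7.41 to 10.9), and in the other 44 Nppa-high spots at 11.8 CPM (1.05, 0.532 to 1.87). Ifit3 was likewise at 96.9 and 14.8 CPM.

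The sarcomere and calcium-handling lists had median ratios near 1 and below the median of all genes. Of 14 sarcomere genes none passed the fold in either section. The medians were -0.02 and -0.01 on the log2 scale, beside 0.16 and 0.12 over all genes. Of all genes, 8.23% and 4.3% were higher by the fold and 0.911% and 0.629% lower. Myh6, the adult α-myosin heavy chain, was at 3133 against 3901 CPM in TAC-4w (0.803, 0.787 to 0.82) and 6933 against 7139 CPM in TAC-6w (0.971, 0.959 to 0.983). Of 11 calcium-handling genes none passed the fold either, with a median of -0.05 in both, and Atp2a2, the calcium pump of the sarcoplasmic reticulum, was at 0.915 (0.90 to 0.93) and 0.945 (0.931 to 0.96). Among ion channel genes, Scn4b, a sodium channel β subunit, was lower in TAC-4w (0.534, 0.338 to 0.809), and Kcnd2, a transient outward potassium channel, was lower in TAC-6w (0.577, 0.371 to 0.862).

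Fatty acid oxidation genes were mostly lower by a small margin. All 22 compared were below a ratio of 1 in TAC-4w and 20 of 22 in TAC-6w, with medians of -0.23 and -0.15 on the log2 scale. By the fold 1 and 0 were lower and none higher. Of all genes, 0.911% and 0.629% were lower and 8.23% and 4.3% higher. The list summed to 21091 against 24286 CPM in TAC-4w (0.868, 0.862 to 0.875) and 14804 against 15861 CPM in TAC-6w (0.933, 0.926 to 0.941). Of the 119 Nppa-high spots of TAC-4w 0 were among the 10% of spots richest in these genes, and of the 189 of TAC-6w 5 (2.65%). Pdk4, a kinase that turns off pyruvate oxidation when fat is burned, was the gene past the fold, at 354 against 569 CPM in TAC-4w (0.623, 0.586 to 0.661), and was at 0.898 (0.833 to 0.968) in TAC-6w. Nuclear genes of the respiratory chain had medians of -0.10 and -0.08, and mitochondrially encoded genes of -0.21 and -0.10. Glycolysis genes were at 0.10 and 0.05, with none of 20 past the fold, and turned to -0.06 and -0.07 when the ratios were rescaled to a median of 0. Ckm and Ckb, the muscle and brain forms of creatine kinase, went apart: Ckm was at 0.782 (0.756 to 0.808) and 0.956 (0.934 to 0.978), and Ckb at 2.28 (1.83 to 2.82) and 1.69 (1.51 to 1.88).

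**Figure D4:**
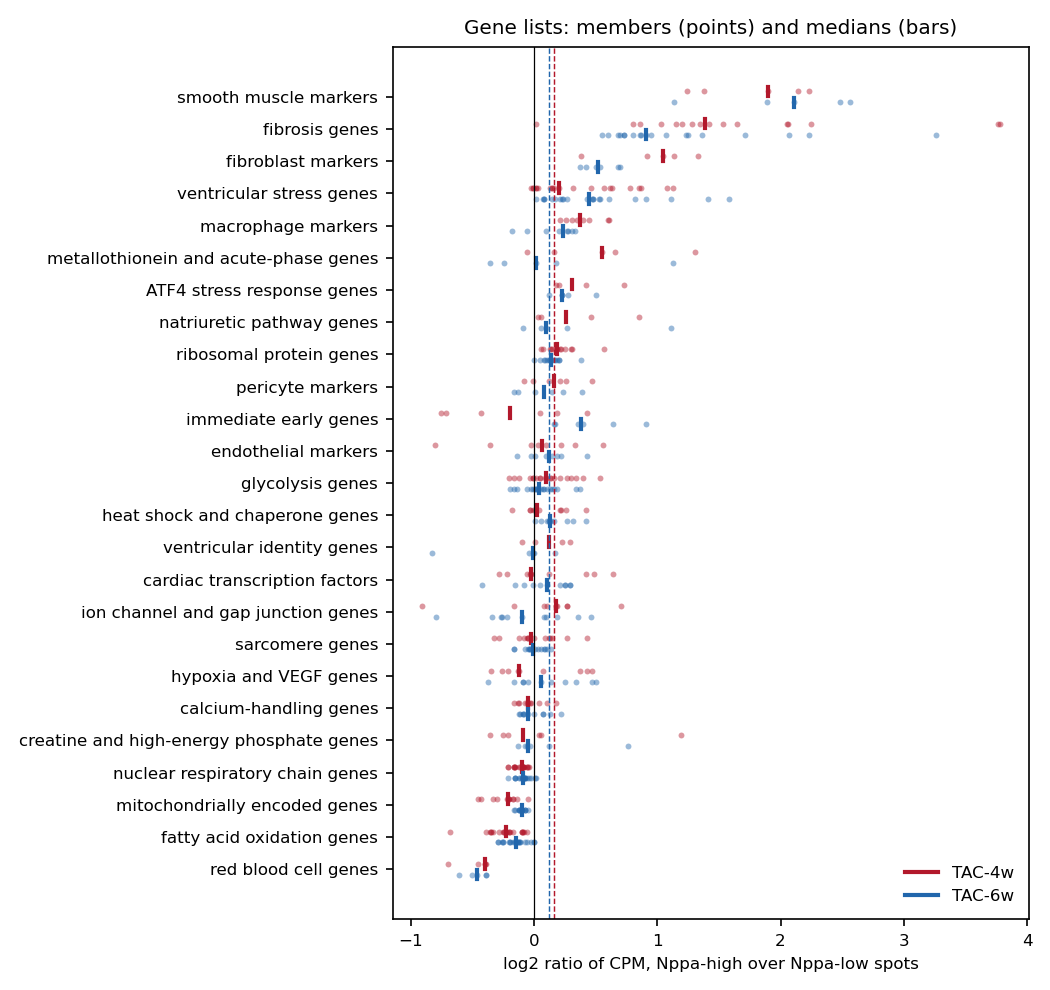
Median log2 ratio of Nppa-high to Nppa-low spots for each gene list (horizontal axis, log2 scale) in TAC-4w and TAC-6w, beside the median over all genes compared (0.16 and 0.12). Smooth muscle and fibrosis lists lie farthest to the right in both sections, and red blood cell, fatty acid oxidation and mitochondrially encoded genes lie to the left of 0.

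Of the 6 atrial genes 4 were at or near 0 in the Nppa-high spots, and Dkk3 and Stard10 were not. Sln and Bmp10, which atrial cardiomyocytes make, had 0 UMIs in the Nppa-high spots of both sections, which allows up to 0.861 CPM in TAC-4w and 0.711 CPM in TAC-6w at 3 counts. Both were near 0 in the Nppa-low spots too, so that their absence does not set the Nppa-high spots apart. The atrial myosin light chain genes Myl4 and Myl7 were at 1.72 and 0.574 CPM in TAC-4w and at 2.13 and 0.474 CPM in TAC-6w. Myl7 was higher in the Nppa-low spots, at 2.53 and 0.827 CPM, and Myl4 was lower there in both sections. Dkk3, a secreted protein of the dickkopf family, was at 13.8 against 0.965 CPM in TAC-4w (48 and 16 UMIs) and at 8.53 against 3.34 CPM in TAC-6w, and Stard10, a lipid transfer protein, at 10.6 against 9.77 CPM and 10.4 against 9.42 CPM. All 6 atrial genes summed to 26.7 against 13.9 CPM (1.92, 1.49 to 2.45) and to 21.6 against 15 CPM (1.44, 1.14 to 1.81), and most of these sums came from Dkk3 and Stard10. The ventricular genes Myl2, Myl3, Irx4, Hey2, Lbh and Fhl2 summed to 14901 against 15127 CPM and to 17918 against 18204 CPM. Most of the ventricular sum came from Myl2 and Myl3. Of the 5 ventricular genes compared in TAC-6w 1 was lower, the transcription factor Irx4 (0.561, 0.332 to 0.897), beside 0.629% of all genes.

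Other tissues of the heart were also checked by their markers. Of the conduction system genes, Gja5 and Cntn2, which mark the Purkinje network, were at 2.58 and 0.861 CPM in TAC-4w and at 7.34 and 0.711 CPM in TAC-6w, against 0.904 and 0.0603 CPM and 1.22 and 0.0719 CPM in Nppa-low spots, all from few UMIs. All 8 conduction genes summed to 56.8 against 42.1 CPM (1.35, 1.15 to 1.58) and 46.7 against 36.2 CPM (1.29, 1.10 to 1.5). Little of these sums came from Gja5 and Cntn2. Of 3 conduction genes compared, 1 was higher by the fold in TAC-4w (Irx3, at 1.68) and 0 in TAC-6w, beside 8.23% and 4.3% of all genes. Tbx3 was at 1.02 and 0.827. Endocardial markers, of the lining of the chambers, summed to 101 against 44.7 CPM in TAC-4w (2.26, 1.98 to 2.56) and 84.6 against 56.4 CPM in TAC-6w (1.5, 1.33 to 1.68). Only 1 of the 6 was compared in TAC-4w and 3 in TAC-6w, and 1 in each section passed the fold, beside 8.23% and 4.3% of all genes. Vwf, von Willebrand factor, was at 2.57 (2.15 to 3.05) and 1.28 (1.09 to 1.51). In TAC-6w Cytl1, a secreted cytokine-like protein, was at 3.54 (2.62 to 4.76), and Nfatc1, a transcription factor, at 1.11. Epicardial and mesothelial markers, of the outer surface, were lower, at 6.6 against 28.9 CPM (0.228, 0.143 to 0.346) and 10.2 against 20.9 CPM (0.487, 0.348 to 0.664), beside the greater distance of the Nppa-high spots from the outer edge, whose part in this was not tested. General endothelial markers had medians near that of all genes, at 0.06 and 0.12, but were split in TAC-4w. There 1 of 8 was lower by the fold (Aqp1, at 0.576), beside 0.911% of all genes, and the highest was Pecam1 at 1.48. None of the 8 passed the fold in TAC-6w. Adipocyte markers were too rare to compare, with 0 UMIs in Nppa-high spots of both sections and 3 and 2 UMIs in Nppa-low spots.

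Immune genes did not move in 1 direction. Of 8 macrophage markers 2 were higher in TAC-4w, beside 8.23% of all genes, and 0 in TAC-6w, beside 4.3%, with medians of 0.37 and 0.24 on the log2 scale. Cd68, a lysosomal glycoprotein of macrophages, was 1 of the 2, at 1.51 (1.13 to 2), and its log2 ratio was -0.26, on the other side, with spots thinned to 5000 UMIs. Lyz2, the lysozyme of myeloid cells, was at 472 against 309 CPM in TAC-4w (1.53, 1.44 to 1.61) and at 1.21 (1.15 to 1.28) in TAC-6w. H2-Aa, an MHC class II chain that presents antigen, was lower in both, at 128 against 193 CPM (0.662, 0.598 to 0.731) and 95.2 against 157 CPM (0.608, 0.548 to 0.674). Against the adjacent spots, or with spots ranked within bands of distance from the edge, H2-Aa was not lower in both by the fold. H2-Ab1, its partner chain, was at 0.695 (0.627 to 0.769) in TAC-4w, short of the fold, and at 0.634 (0.573 to 0.70) in TAC-6w. S100a9, a neutrophil protein, was at 0.582 (0.451 to 0.742) and 0.266 (0.126 to 0.497), but in TAC-4w the log2 ratio was 0.15, on the other side, when spots were ranked within bands of distance from the edge. In TAC-6w its UMIs came from 8 of the 189 Nppa-high spots, the 10 richest Nppa-low spots held 71.4% of those in Nppa-low spots, and with spots thinned to 5000 UMIs 2.12% of Nppa-high and 2.22% of Nppa-low spots had one. Serpina3n, an acute-phase protease inhibitor, was higher in both sections, at 2.48 (2.24 to 2.74) and 2.20 (1.66 to 2.87). Of 5 red blood cell genes 1 was lower in each section, beside 0.911% and 0.629% of all genes, with medians of -0.40 and -0.46 on the log2 scale. The median was 0.06 in TAC-6w with the top 20% of spots and 0.04 in TAC-4w without the largest connected group. Hbb-bs, the main adult β-globin, was at 0.756 (0.735 to 0.777) and 0.762 (0.747 to 0.778).

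The lowest ratios in TAC-4w were those of immunoglobulin genes. Iglc1 and Igha, which plasma cells express, had ratios of 0.0217 (0.00262 to 0.0788) and 0.0309 (0.00635 to 0.0909), which rested on 2 and 3 UMIs in Nppa-high spots. The 10 richest Nppa-low spots held 94.5% of the Iglc1 UMIs of the Nppa-low spots, so that its ratio rested on few spots, and Iglc1 was on the other side (log2 ratio 0.59) when spots were ranked within bands of distance from the edge. Scd4, a fatty acid desaturase, was at 0.307 (0.219 to 0.42), and Ehhadh, an enzyme of peroxisomal fatty acid oxidation, at 0.368 (0.197 to 0.634). Strit1, a micropeptide that activates the calcium pump of the sarcoplasmic reticulum, was at 0.314 (0.213 to 0.45) in TAC-4w and 0.73 (0.604 to 0.876) in TAC-6w, and Lrtm1, a leucine-rich repeat membrane protein, at 0.352 (0.285 to 0.431) and 0.602 (0.539 to 0.67).

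In TAC-6w the lowest ratios were those of Inmt, an amine methyltransferase, at 2.37 against 10.6 CPM (0.224, 0.106 to 0.418), and of S100a9. Rsrc1, a protein linked to splicing, was at 0.457 (0.245 to 0.784), and Coa6, an assembly factor of cytochrome c oxidase, at 0.485 (0.32 to 0.707). Acot1, which hydrolyses acyl-CoA in the cytosol, was at 0.476 (0.307 to 0.709) in TAC-6w and 0.682 (0.592 to 0.784) in TAC-4w. Irx4, a transcription factor of ventricular identity, was at 4.5 against 8.02 CPM in TAC-6w (0.561, 0.332 to 0.897) with 19 UMIs in Nppa-high spots, and had too few UMIs in TAC-4w.

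Levels changed with distance from the Nppa-high spots, falling at different rates for some lists and rising for others. In TAC-4w the fibrosis genes were at 1407 CPM in Nppa-high spots, 620 CPM in spots 1 step away and 494, 463 and 494 CPM at 2, 3 to 4 and at least 5 steps. In TAC-6w they declined over a longer range, with 2967, 2018, 1782, 1605 and 1452 CPM. The fibrosis level of TAC-4w was thus back at that of the farthest spots 2 steps away, and that of TAC-6w was still above it at 3 to 4 steps. Nppb was at 578, 389, 347, 315 and 335 CPM in TAC-4w and at 302, 185, 178, 142 and 127 CPM in TAC-6w. Smooth muscle markers reached farther in TAC-4w (326, 186, 153, 102 and 113 CPM) than in TAC-6w, where they were at 469 CPM in the Nppa-high spots and between 119 and 153 CPM elsewhere. Fatty acid oxidation genes were at 21091 CPM in the Nppa-high spots of TAC-4w, at 23451 CPM 1 step away, and between 23959 and 24405 CPM farther off.

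**Figure D5:**
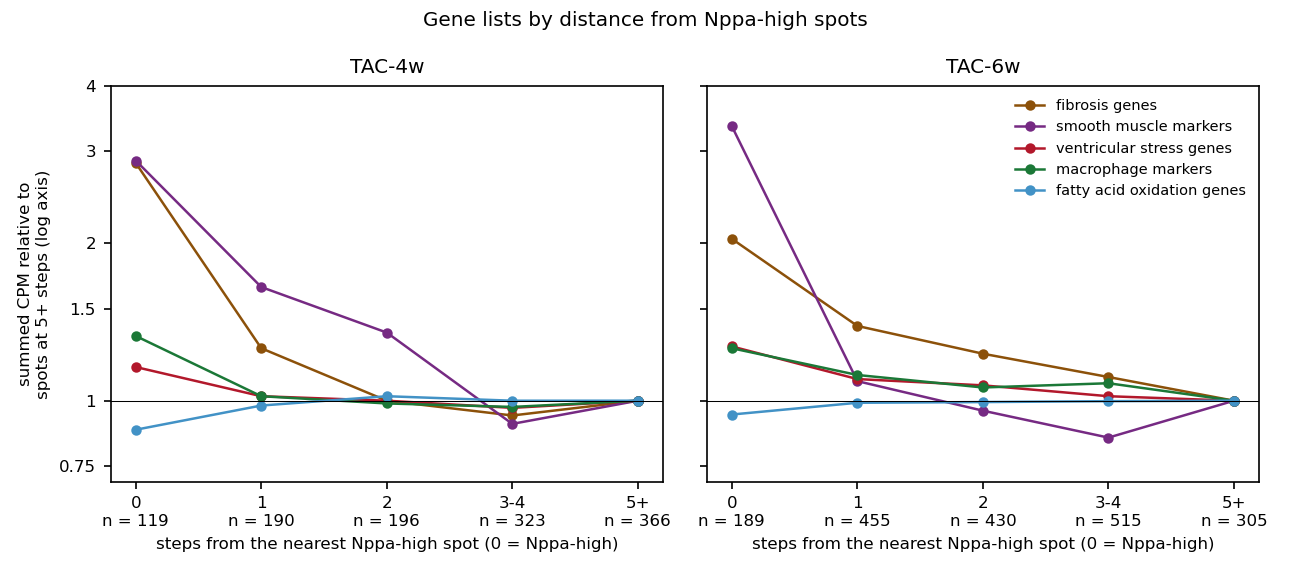
Summed CPM of 5 gene lists relative to spots at least 5 steps away (vertical log axis) by steps from the nearest Nppa-high spot, where 0 is the Nppa-high spots themselves. Fibrosis genes stand at 2.85 in TAC-4w and 2.04 in TAC-6w in the Nppa-high spots and at 1.26 and 1.39 in their direct neighbours.

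The Nppa-high spots were not uniform. In TAC-4w only 2 of the 75 spots of the largest connected group (2.67%) lay within 2 steps of the edge, against 9 of the 44 others (20.5%). Nppa, which chose the spots and thereby the groups, was at 11600 CPM in the group and 7411 CPM in the others, given as a description only. Postn was at 205 CPM in this group and at 76.8 CPM in the other Nppa-high spots, with 12.2 CPM in Nppa-low spots. Fibrosis genes together were at 3.39 (3.26 to 3.53) times the Nppa-low level in the group and at 2.04 (1.90 to 2.18) times in the others. Nppb differed less, at 1.89 (1.78 to 2.00) and 1.60 (1.46 to 1.75). Smooth muscle markers were at 3.08 (2.82 to 3.35) and 3.56 (3.17 to 3.99), and the red blood cell genes were low in the group alone, at 0.626 (0.61 to 0.642) against 1.04 (1.01 to 1.08).

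In TAC-6w the largest group and the remaining spots differed in another way. None of the 55 spots of the group lay within 2 steps of the edge, and the group was 15 steps from it in the median, the 134 others 9 steps. Smooth muscle markers were at 2.02 (1.78 to 2.29) times the Nppa-low level in the group and at 4.82 (4.54 to 5.11) times in the others, with Myh11 at 15.5 and 67.6 CPM. Fibrosis genes hardly differed, at 2.02 (1.95 to 2.09) and 1.83 (1.79 to 1.88), and Thbs4 was high in both, at 8.56 (6.09 to 11.9) and 9.97 (7.90 to 12.6). Myh7 was at 3.86 (3.43 to 4.34) in the group and 2.65 (2.42 to 2.91) in the others, and Nppb at 1.93 (1.71 to 2.16) and 2.24 (2.08 to 2.40). The summed smooth muscle ratio was thus higher in the other Nppa-high spots of TAC-6w than in the compact group. In the group it was as high as the ratio of the fibrosis genes. These sums do not describe every spot, since the 10 richest Nppa-high spots of TAC-6w held 57.1% of the smooth muscle UMIs there. The Thbs4 UMIs were concentrated in few spots too, as given above.

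The same rule was applied to the sham and TAC-2w sections to see what the top 10% of Nppa spots looked like at lower levels. Their Nppa-high spots were at 796 and 1310 CPM of Nppa, and 703 of 703 and 916 of 1024 Nppa-low spots had no Nppa UMI. The next spot above the Nppa-low spots of sham had none either, so that this cut fell among tied spots and followed their order in the data. The lowest Nppa-high spot of sham had 5 Nppa UMIs. In sham, 462 of 4866 genes (9.49%) were higher and 19 (0.39%) lower, and in TAC-2w 372 of 7258 (5.13%) and 53 (0.73%). Of the 139 genes higher in both TAC-4w and TAC-6w, 94 of the 103 compared in sham and 78 of the 125 compared in TAC-2w were higher there too. Most of the shared genes that could be compared were thus also higher in the Nppa-high spots of the sham heart. Fibrosis genes had medians of 0.88 and 0.86 on the log2 scale, beside 1.39 in TAC-4w and 0.91 in TAC-6w, and Postn ratios of 4.99 and 2.97. Nppb was at 2.27 in sham and 2.34 in TAC-2w, and Myh7 at 2.69 and 3.55. Smooth muscle markers had medians of 2.56 in sham and 0.58 in TAC-2w, so that their excess did not follow the order of time after surgery. All 6 red blood cell genes were higher in the Nppa-high spots of TAC-2w, with a median of 1.19 beside -0.40 in TAC-4w and -0.46 in TAC-6w. The position away from the edge was also shared, with 7.86% of Nppa-high against 33.4% of Nppa-low spots within 2 steps in sham and 3.92% against 32.3% in TAC-2w. No test compared the sections, each of which was a single heart.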

How the data were processed

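Spatial transcriptomes of 4 heart sections (1 sham heart and 1 each at 2, 4 and 6 weeks after constriction) were used. The authors aligned reads to mm10 and deposited UMI counts per gene and spot over tissue, made with Space Ranger and without normalization, for 32285 genes. The file headers name version 1.2.0 and the submitters' processing notes version 1.3.1, which was not resolved. Groups were taken from the labels. The 4 single-cell libraries were not used here.

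Steps from the edge were counted on the hexagonal array of spots, where the outer edge is any spot with a neighbouring place outside the tissue. Spots with at least 5000 UMIs were ranked by Nppa UMIs per total UMIs within each section. Counts were summed over the top 10% and over the bottom 50% of spots, scaled per 1000000 UMIs and divided. Genes with at least 300 UMIs over the ranked spots were compared, Nppa left out, and a ratio of at least 1.5 in either direction was counted. For ratios an exact conditional binomial interval was computed and for shares a Clopper-Pearson interval, both at 95% and both covering counting error only. The ratio step was tested on simulated sums that varied by counting error only. That test does not cover genes whose UMIs lie in few spots. No test was made and no p-value is given, because each condition had 1 section.

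The members, the 31 gene lists (340 genes) and the settings were chosen with earlier results of these data known. Genes were named by rule: the 12 highest and 12 lowest ratios of each section and of both sections together, and from each list up to 4 genes with the most UMIs, the 2 highest and the 2 lowest ratios. Markers set to check each cell type were named beside these, as were Ifi27l2a and Oasl2. Some of the genes so named are not reported here. Alternatives changed the UMI minimum, the share of spots taken, the ranking (within strata of depth or of distance from the edge, or on spots thinned to 5000 UMIs), the spots compared with, the scaling, the gene minimum, the fold and the definition of the edge. Leaving out the 5% of spots highest in smooth muscle or fibrosis genes, or the largest connected group, was added after the data were seen. Values were computed with Python 3.11.15, numpy 2.4.6, scipy 1.17.1 and pandas 2.3.3, and drawn with matplotlib 3.10.9.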

Additional observations from a re-analysis of the deposited data

Results flagged for a closer look

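Nr4a1, an immediate early gene of the nuclear receptor family, differed in opposite directions in the 2 sections. Its ratio of Nppa-high to Nppa-low spots was 0.744 (95% exact binomial interval 0.602 to 0.913) in TAC-4w, from 31 against 41.7 CPM, and 1.55 (1.27 to 1.89) in TAC-6w, from 29.6 against 19.1 CPM. With 1 section per time the difference between the sections was not tested and cannot be told apart from batch.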

How the results depend on the processing

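Under the alternatives 597 ratios of named and listed genes and 57 list medians were followed, of which 134 and 7 had passed the fold. Of the values of these 16 and 1 turned to the other side. With spots thinned to 5000 UMIs the log2 ratios of Atf3, Cd68 and Mybpc2 in TAC-4w were 0.11, -0.26 and -0.37 and that of Gadd45b in TAC-6w 0.06. Against the adjacent spots Atf3, Btg2 and Ccl5 in TAC-4w were at 0.13, 0.14 and 0.66 and Cxcl14 in TAC-6w at 0.02. Ranked within bands of distance from the edge, Cxcl14, Iglc1 and S100a9 in TAC-4w were at 0.16, 0.59 and 0.15, Irf8 in TAC-6w at 0.17, and Igkc, the 1 lymphocyte marker compared, at 1.72. Without the largest connected group Lgals3, Prepl and S100a9 in TAC-4w were at -0.01, 0.07 and 0.15. The cause was not tested for any of these. No paired analysis was possible because each condition had 1 section and no section was repeated.

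Counts of genes past the fold moved with most settings and are given in the order higher in TAC-4w, higher in TAC-6w, lower in TAC-4w and lower in TAC-6w, then higher and lower in both sections. With the top 5% they were 837, 717, 117, 134, 238 and 19, and with the top 20% 264, 144, 30, 20, 71 and 2. A threshold of 0.32 on the log2 scale, lower than that of a 1.5-fold ratio, gave 1664, 1586, 262, 273, 600 and 40, and a 2-fold threshold gave 135, 51, 14, 5, 26 and 0. A minimum of 100 UMIs per gene gave 1234, 757, 184, 255, 299 and 25, a minimum of 1000 gave 138, 103, 13, 6, 44 and 2, and no minimum gave 3702, 2553, 2993, 3605, 1008 and 1225, as more genes of few UMIs entered. Rescaled to a median of 0 they were 276, 177, 144, 100, 84 and 17. Thinned to 5000 UMIs they were 1029, 828, 458 and 584, with 44 lower in both. Without mitochondrial and ribosomal-RNA-like features in the total they were 318, 211, 104 and 88, with 12 lower in both. Against the adjacent spots 216 were higher in TAC-6w, 39 higher in both and 0 lower in both, and against all other spots 2 were lower in both. Ranked within bands of distance from the edge 27 were lower in TAC-6w and 0 in both, and the mean level per spot gave 126 lower in TAC-6w. Among the alternatives chosen after seeing the data, leaving out the 5% of spots highest in smooth muscle markers gave 219 higher in TAC-6w, 62 higher in both and 10 lower in both, and leaving out those highest in fibrosis genes gave 243 and 178 higher, 82 lower in TAC-6w and 42 higher in both. Without the largest connected group 236 and 91 were lower. Genes higher outnumbered genes lower in each section under all of these except TAC-6w with no gene minimum.

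The share of Nppa-high spots within 2 steps of the edge in TAC-4w was 3.39% for the top 5% and 20.5% without the largest group, and in TAC-6w 12.7% lay within 4 steps. The share of neighbours that were Nppa-high was 60.8% and 40.2% at a minimum of 10000 UMIs per spot, 40.6% in TAC-6w at 2000 UMIs, 29.9% in TAC-6w for the top 5%, 65.9% and 52.2% for the top 20%, and 48.8% in TAC-4w when ranked within strata of depth. Depth limits the genes of few UMIs, whose ratios have the widest intervals, and 1 section per condition limits every statement to these 2 hearts.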

Other observations

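Further lists are given beside the median of all genes, which was 0.16 in TAC-4w and 0.12 in TAC-6w on the log2 scale. Ribosomal protein genes had medians of 0.19 and 0.14, with Rpl3, a core protein of the large subunit, highest in both sections at ratios of 1.48 (1.37 to 1.60) and 1.31 (1.2 to 1.41). Heat shock and chaperone genes were at 0.02 and 0.13 and hypoxia and VEGF genes at -0.12 and 0.06, and none of either list passed the fold. ATF4 stress response genes were at 0.31 and 0.23, with 1 of 4 past the fold in TAC-4w (Atf5, at 1.66) and 0 of 5 in TAC-6w. Metallothionein and acute-phase genes were at 0.55 and 0.02, above the median of all genes in TAC-4w alone. Of these 2 of 5 and 1 of 5 passed the fold, all higher, beside 8.23% and 4.3% of all genes.

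Transcription factors of the heart were at -0.02 in TAC-4w, below the median of all genes, and at 0.11 in TAC-6w, near it. Tbx20, which cardiomyocytes need for their adult program, was the only one of 10 past the fold in TAC-4w, at 1.55 (1.3 to 1.85). That share is near the 8.23% of all genes, and 0 of 11 passed in TAC-6w. Immediate early genes were at -0.19 in TAC-4w, where 2 of 6 were lower beside 0.911% of all genes, and at 0.38 in TAC-6w, where 2 of 6 were higher beside 4.3%. The 2 in TAC-4w, Atf3 and Btg2, turned to log2 ratios of 0.13 and 0.14 against the adjacent spots, and Atf3 to 0.11 with spots thinned to 5000 UMIs. Lymphocyte markers summed to 7.18 against 15 CPM in TAC-4w and 11.8 against 18.4 CPM in TAC-6w, with 0 and 1 of 7 at or above the gene minimum. Creatine and high-energy phosphate genes were at -0.09 and -0.04.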
